A study of Mus musculus with 6 samples.

Results

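The 36 genes described here encode amino acid transporters of the mouse uterus, taken by symbol from the families *Slc1*, *Slc3*, *Slc6*, *Slc7*, *Slc36*, *Slc38* and *Slc43*, with *Slc7a11* left out. They are 36 of the 56748 genes in the deposited tables, all 36 were found by symbol, and 29 of them passed edgeR's filter on low counts, which kept 16605 genes. RNA was sequenced from uteri of pregnant mice on the C57BL/6J background, collected at 1600 h on day 4, shortly before embryo attachment. Control females (3 uteri) are labelled wildtype, and the methods describe controls as wildtype or as floxed *Gp130* females without iCre. *Gp130* ecKO females (3 uteri) carried 1 *Ltf*-iCre allele and floxed *Gp130* on both chromosomes, so the deletion follows lactotransferrin expression, which is strong in the epithelium and also known from some neutrophils and macrophages. The females were sexually mature and mated with fertile males. The sample labels name the tissue as uterus, whereas the series description speaks of endometrium, and smooth muscle markers were present at varying levels. Stroma, muscle, vessels and possibly embryos could thus contribute RNA. The labels do not say whether each uterus is a separate animal. P-values therefore measure the spread between these samples.

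Amino acid transporters move building blocks of protein across the plasma membrane and out of lysosomes. Some are driven by sodium and concentrate amino acids in the cell, some are exchangers that trade one amino acid for another, and some let them pass down their gradient. The SLC7 light chains need a heavy chain, *Slc3a2* or *Slc3a1*, to reach the membrane. In the pregnant uterus these proteins load epithelial cells and the luminal fluid with amino acids such as arginine, leucine and glutamine, which early embryos take up. Leucine and arginine also feed the kinase complex mTORC1, and shortage of amino acids is sensed by the kinase GCN2, which raises the transcription factor ATF4.

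Total expected counts ranged from 13960748 in control 3 to 25906443 in control 2. *Il6st*, the gene for Gp130, averaged 587 CPM in controls against 367 CPM in *Gp130* ecKO. The groups did not overlap, as in 31.3% of all tested genes. Its log2 fold change was −0.68 (adjusted p = 0.120 with edgeR's quasi-likelihood test and 0.0346 with DESeq2). CPM is the count scaled by edgeR to the TMM-adjusted size of the library. Summed TPM (the transcript share within a library, a level corrected for gene length) of 11 epithelial markers ranged from 2106 to 3760 in the control and from 5054 to 7600 in *Gp130* ecKO. The sum of 9 stromal markers was 1978 to 2274 and 1094 to 1555, and that of 6 endothelial markers was 183.1 to 410.9 and 92.39 to 179.1. Smooth muscle markers (8 genes) differed mainly between uteri, with sums of 2065, 1523 and 438.6 TPM in controls 1, 2 and 3 and 374.3, 759.3 and 2350 TPM in *Gp130* ecKO 1, 2 and 3. The gland proteases *Prss28* and *Prss29* set *Gp130* ecKO 1 apart, with 6546 CPM of *Prss29* against at most 523.1 CPM in any other uterus. Of 5 blastocyst markers, 1 passed the filter on low counts, and their summed TPM was at most 2.94. Fewer cells of a type and less RNA per cell cannot be told apart in such samples, and the part that these shifts play in the values of the transporters was not tested.

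The level of the transporters spanned from over 200 TPM to 0. *Slc1a1*, the sodium-driven glutamate and aspartate transporter, was the most abundant, measuring 309.19, 206.09 and 207.48 TPM in control uteri 1 to 3 against 257.51, 129.15 and 108.05 TPM in *Gp130* ecKO uteri 1 to 3. It made up 31.5% of the summed TPM of the 36 genes in the control. *Slc3a2*, the heavy chain of the SLC7 exchangers, followed with 107 ± 5.11 TPM (SD, n = 3), and *Slc1a5*, an exchanger that brings in glutamine, with 103 ± 15.5 TPM (SD, n = 3). These neighbours in the order did not differ beyond their spread, and *Slc1a1* was above both in every control uterus. *Slc6a6*, the taurine transporter, had 70.4 ± 26.1 TPM (SD, n = 3) and *Slc38a2*, a sodium-coupled carrier of small neutral amino acids, 65.5 ± 20.3 TPM (SD, n = 3), again within their spread. After these 5 genes the control mean dropped to 25.2 TPM for *Slc38a10*, and the other tested members lay between 0.223 TPM for *Slc1a2* and 19.8 TPM for *Slc6a14*. Summed over the 36 genes, the level was 717.2 to 797.2 TPM in the control and 771.1 to 926.5 TPM in *Gp130* ecKO, so the groups overlapped.

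**Figure D1:**
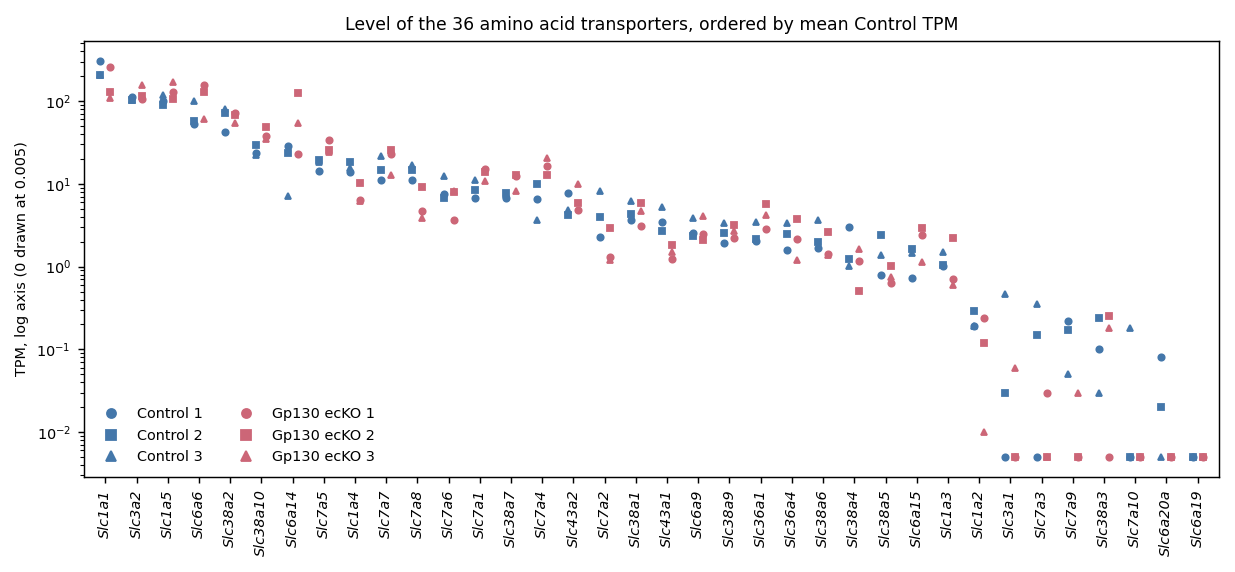
TPM of the 36 amino acid transporters in each of the 6 uteri on a log axis, ordered by the control mean, with values of 0 drawn at 0.005. Blue symbols are control uteri and red symbols *Gp130* ecKO uteri, and the shape gives the number of the uterus. The 5 genes at the left have control means from 65.5 to 241 TPM, and the 7 at the right fell under the filter on low counts.

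With edgeR's quasi-likelihood test, an FDR (false discovery rate) threshold of 0.05 and a minimum change of 2-fold, 0 of the 29 tested transporters were called. The share of all tested genes was 0.157%, with 0.126% higher and 0.0301% lower in *Gp130* ecKO. This share rests on 26 called genes, a number that moved widely with a uterus left out. At an unadjusted p below 0.05 there were 10 of 29, or 34.5%, against 25% of all tested genes. Of these, 6 were higher and 4 lower in *Gp130* ecKO. They are 20.7% and 13.8% of the 29, against 12.1% higher and 12.9% lower of all tested genes. Without *Gp130* ecKO 2 there were 2 higher and 4 lower. The 4 lower genes were *Slc1a4*, *Slc7a8*, *Slc43a1* and *Slc7a2*. These 4 changed by more than 2-fold with an FDR below 0.05 in DESeq2 and in edgeR's exact test. DESeq2 called 9.31% of all tested genes, 4.41% higher and 4.9% lower, and the exact test 7.54%, 3.75% higher and 3.79% lower. The 4 transporters are 13.8% of the 29, above the share of all genes called lower in both tests. None of the 6 higher genes passed both thresholds in either test. Groups without any overlap in CPM were found for 9 of the 29, against 31.3% of all tested genes. The median log2 fold change of the 29 was −0.03, beside −0.05 over all tested genes, with 14 higher and 15 lower. The share without overlap, the median and the share lower at an unadjusted p below 0.05 thus lay near those of all genes. The share called lower by DESeq2 and the exact test was above theirs. So was the share higher at an unadjusted p below 0.05, which fell to 2 genes without *Gp130* ecKO 2.

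**Figure D2:**
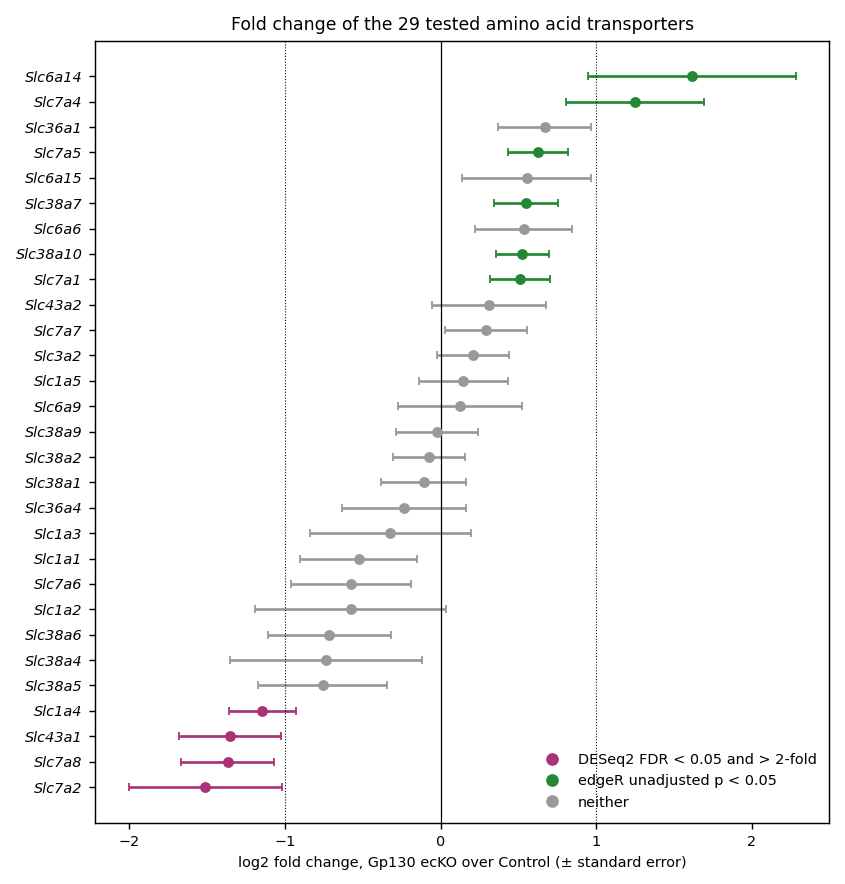
Log2 fold change of the 29 tested transporters in *Gp130* ecKO over the control, with bars for the standard error of edgeR's quasi-likelihood fit and dotted lines at a 2-fold change. The 4 genes below −1 are those called by DESeq2, green points had an unadjusted p below 0.05 in edgeR, and *Slc6a14* at the top has the widest bar, with a standard error of 0.67.

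*Slc1a4* encodes an exchanger of alanine, serine and cysteine and had the smallest p of the 29. It lies on chromosome 11 of GRCm39 from 20252180 to 20282774. Control uteri 1 to 3 measured 43.3, 54.9 and 43.2 CPM, against 17.9, 26.3 and 19.6 CPM in *Gp130* ecKO uteri 1 to 3. The highest *Gp130* ecKO uterus lay well under the lowest control. *Slc1a4* was 2.21-fold lower in *Gp130* ecKO, or −1.15 on the log2 scale (standard error, SE, 0.22, quasi-likelihood adjusted p = 0.0673 in edgeR). The adjusted p was 3.80e-04 with DESeq2 and 0.00168 with edgeR's exact test. With each uterus left out in turn the change stayed between −1.33 and −0.99, and the unadjusted p was below 0.05 in all 16 alternatives.

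The promoter of *Slc1a4* is shown because it holds TTGCATCA, the letters of an amino acid response element, which ATF4 and C/EBP factors are known to bind. The RefSeq window of build GRCm38.p6 covers chr11:20332664-20332963 on the minus strand, 250 bases before to 50 bases after the start site. Capitals mark the match, which begins 4 bases before the start site.
Slc1a4: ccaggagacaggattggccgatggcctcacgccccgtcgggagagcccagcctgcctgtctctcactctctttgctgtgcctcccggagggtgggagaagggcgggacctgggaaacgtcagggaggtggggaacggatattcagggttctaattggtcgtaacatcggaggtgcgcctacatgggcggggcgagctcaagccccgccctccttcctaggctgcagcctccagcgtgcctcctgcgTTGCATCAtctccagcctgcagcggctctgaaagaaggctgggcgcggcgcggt
RefSeq gave windows for 27 of the 36 transporters, 39 in all. On either strand, TTGCATCA occurred in 3 of them, 1 of *Slc1a4* and 2 overlapping ones of *Slc7a7*, and in 0.895% of all 32851 windows. In *Slc7a7*, whose groups overlapped in CPM, it stands in the reverse orientation in a window that covers chr14:54417895-54418194 on the minus strand and begins 1 base before its start site. Another *Slc7a7* window, of an alternative start, holds the same match 243 bases before that start.
Slc7a7: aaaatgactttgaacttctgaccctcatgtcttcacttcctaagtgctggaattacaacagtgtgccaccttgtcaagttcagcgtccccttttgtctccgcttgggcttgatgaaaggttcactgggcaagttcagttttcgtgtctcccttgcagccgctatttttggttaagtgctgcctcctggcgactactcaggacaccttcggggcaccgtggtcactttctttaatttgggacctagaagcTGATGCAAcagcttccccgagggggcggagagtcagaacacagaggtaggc
A match is a description of the letters and no evidence of binding.

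*Slc7a8* encodes an exchanger of neutral amino acids that pairs with the heavy chain *Slc3a2* (chromosome 14, 54959630 to 55019649). Control uteri 1 to 3 measured 35.8, 45.7 and 49.2 CPM, against 13.5, 24.5 and 12.5 CPM in *Gp130* ecKO uteri 1 to 3. The groups did not overlap, and *Gp130* ecKO 2 lay closest to the control. It was 2.58-fold lower, a log2 fold change of −1.37 (SE 0.30, adjusted p = 0.0793 with edgeR and 0.00181 with DESeq2). Leaving out 1 uterus at a time gave −1.74 to −1.16.

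*Slc43a1* encodes a facilitative carrier of leucine and other large neutral amino acids (chromosome 2, 84669194 to 84698315). It measured 8.13, 6.13 and 11 CPM in control uteri 1 to 3 against 2.71, 3.54 and 3.57 CPM in *Gp130* ecKO uteri 1 to 3. All *Gp130* ecKO uteri were below all control uteri. The difference was 2.56-fold, a log2 fold change of −1.35 (SE 0.33, adjusted p = 0.0900 with edgeR and 0.00319 with DESeq2), and −1.50 to −1.12 with a uterus left out. *Slc7a8* and *Slc43a1*, like *Slc1a4*, kept an unadjusted p below 0.05 in all 16 alternatives. These 3 genes also had an adjusted p below 0.1 with edgeR, which 6.47% of all tested genes had.

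*Slc7a2* encodes a carrier of arginine, lysine and ornithine (chromosome 8, 41315431 to 41375345) and is known to be induced in macrophages. Control uteri 1 to 3 measured 14.4, 23.9 and 45.6 CPM, against 6.60, 15.2 and 7.50 CPM in *Gp130* ecKO uteri 1 to 3. Control 3 was the highest, and *Gp130* ecKO 2 was slightly above control 1, so the groups overlapped. The gene was 2.86-fold lower, a log2 fold change of −1.51 (SE 0.49, adjusted p = 0.129 with edgeR and 0.0289 with DESeq2). Without control 3 the change was −0.97, and without *Gp130* ecKO 2 it was −1.98. The unadjusted p rose above 0.05 without control 3, *Gp130* ecKO 1 or *Gp130* ecKO 3. Of 8 macrophage markers, 5 were lower in *Gp130* ecKO, 1 of them with an unadjusted p below 0.05, and their summed TPM overlapped between the groups, with 457.9 to 581.6 in the control and 382.3 to 705.4 in *Gp130* ecKO. All 9 stromal and all 6 endothelial markers were lower in *Gp130* ecKO, with a median log2 fold change of −0.81 and −1.23. So were all 4 mesothelial markers, whose sums were 78.65 to 111.8 TPM in controls and 32.2 to 56.98 TPM with *Gp130* deleted. Of 6 neutrophil markers 4 were tested, 3 were lower at an unadjusted p below 0.05 and *Ly6g* was higher on average, all at no more than 3.12 CPM in any uterus. The part of these cell types in the lower values of the 4 transporters was not tested.

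Among the 6 higher genes, *Slc7a5* encodes the main carrier of leucine and other large neutral amino acids (chromosome 8, 122607884 to 122634433) and pairs with *Slc3a2* as *Slc7a8* does. It measured 40.1, 51.3 and 45.8 CPM in control uteri 1 to 3 against 85.0, 59.3 and 67.5 CPM in *Gp130* ecKO uteri 1 to 3. No *Gp130* ecKO uterus was as low as a control. The gene was 1.54-fold higher, a log2 fold change of 0.63 (SE 0.19, edgeR adjusted p = 0.119). DESeq2 gave an adjusted p of 0.0466, below the FDR threshold though not past a 2-fold change. The change was 0.48 without *Gp130* ecKO 1, where the unadjusted p rose above 0.05.

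*Slc7a1* encodes the widespread carrier of arginine and lysine (chromosome 5, 148264220 to 148336848). Control uteri 1 to 3 measured 39.4, 46.3 and 57.5 CPM, against 76.4, 64.9 and 62.1 CPM in *Gp130* ecKO uteri 1 to 3. The lowest *Gp130* ecKO uterus was just above control 3. It was 1.42-fold higher, a log2 fold change of 0.51 (SE 0.19, edgeR adjusted p = 0.164). Its unadjusted p was below 0.05 in 10 of 16 alternatives. The exceptions were upper quartile normalization, the replicate number as a block, and the fits without control 1, control 2, *Gp130* ecKO 1 or *Gp130* ecKO 2. A window that RefSeq gives for it in GRCm38.p6, chr5:148392766-148393065 on the minus strand, is shown because STAT3 acts downstream of Gp130 and the window holds TTCNNNGAA, the letters STAT factors are known to bind. The match, in capitals, begins 146 bases before the start site.
Slc7a1: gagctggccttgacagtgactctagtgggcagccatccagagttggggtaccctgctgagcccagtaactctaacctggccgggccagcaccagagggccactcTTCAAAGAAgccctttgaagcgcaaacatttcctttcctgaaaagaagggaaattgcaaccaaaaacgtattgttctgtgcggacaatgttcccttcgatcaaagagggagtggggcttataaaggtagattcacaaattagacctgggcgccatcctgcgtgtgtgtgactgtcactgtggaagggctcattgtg
On both strands the letters TTCNNNGAA occurred in 3 of the 39 windows of transporters, 1 each of *Slc7a1*, *Slc1a3* and *Slc38a9*, and in 8.3% of all windows, so the share was near that of all genes. The other *Slc7a1* window, chr5:148399855-148400154, lies upstream of the one shown on this strand and had no match. The palindromic estrogen response element was in 0 of the 39 windows and in 0.07% of all windows.

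*Slc7a4* belongs to the same family as *Slc7a1* by its sequence, and its own substrates are unsettled. It lies on chromosome 16 from 17386477 to 17401122. Control uteri 1 to 3 measured 9.95, 14.2 and 4.47 CPM, against 21.5, 15.6 and 31.3 CPM in *Gp130* ecKO uteri 1 to 3. The groups did not overlap, although *Gp130* ecKO 2 was only slightly above control 2. The log2 fold change was 1.25 (SE 0.44, adjusted p = 0.149 with edgeR and 0.0517 with DESeq2), a 2.38-fold difference. The unadjusted p was not below 0.05 with the replicate number as a block and without *Gp130* ecKO 3, and the change was 0.92 to 1.67 with a uterus left out. Of the stretches of 75 bases in its transcripts, 21.8% also occur in *P2rx6* on the opposite strand. The neighbour *P2rx6* averaged 4.53 CPM in controls against 3.66 CPM in *Gp130* ecKO.

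*Slc6a14*, which brings in neutral and cationic amino acids with sodium and chloride (chromosome X, 21581135 to 21608594), had the largest positive change of the 29. It measured 78.2, 60.5 and 17.5 CPM in control uteri 1 to 3 against 55.7, 275.9 and 147 CPM in *Gp130* ecKO uteri 1 to 3. The groups overlapped, since *Gp130* ecKO 1 had less than 2 of the controls, and *Gp130* ecKO 2 was far above the rest. The log2 fold change was 1.61 (SE 0.67, edgeR adjusted p = 0.191), a 3.06-fold difference. It was 0.96 without *Gp130* ecKO 2 and 2.05 without control 1. The unadjusted p stayed below 0.05 in 10 of 16 alternatives, and not with the replicate number as a block. Epithelial markers were also higher in *Gp130* ecKO, 10 of 11 with a median log2 fold change of 0.78. Their sums were 7600, 6052 and 5054 TPM in *Gp130* ecKO uteri 1 to 3. The part of epithelial content in the values of *Slc6a14* was not tested.

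*Slc38a10* and *Slc38a7* complete the higher genes. *Slc38a10*, a little-studied relative of the sodium-coupled carriers (chromosome 11, 119994770 to 120042189), measured 65.4, 80.6 and 58.5 CPM in control uteri 1 to 3 against 92.8, 102.5 and 99.2 CPM in *Gp130* ecKO uteri 1 to 3. *Slc38a7*, which exports glutamine from lysosomes (chromosome 8, 96562548 to 96580189), measured 16.9, 18.4 and 14.9 CPM in control uteri 1 to 3 against 27.5, 25.2 and 20.8 CPM in *Gp130* ecKO uteri 1 to 3. In neither gene did the groups overlap. *Slc38a10* was 1.44-fold higher, a log2 fold change of 0.53 (SE 0.17, edgeR adjusted p = 0.127). The unadjusted p of *Slc38a10* was below 0.05 in 15 of 16 alternatives. That of *Slc38a7* was in 11, and not with the replicate number as a block. *Slc38a7* was 1.46-fold higher, a log2 fold change of 0.55 (SE 0.21, edgeR adjusted p = 0.162). With 3 uteri a group, 0.1 is the smallest two-sided p of an exact permutation test, the value it gave for the 9 genes whose groups did not overlap.

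**Figure D3:**
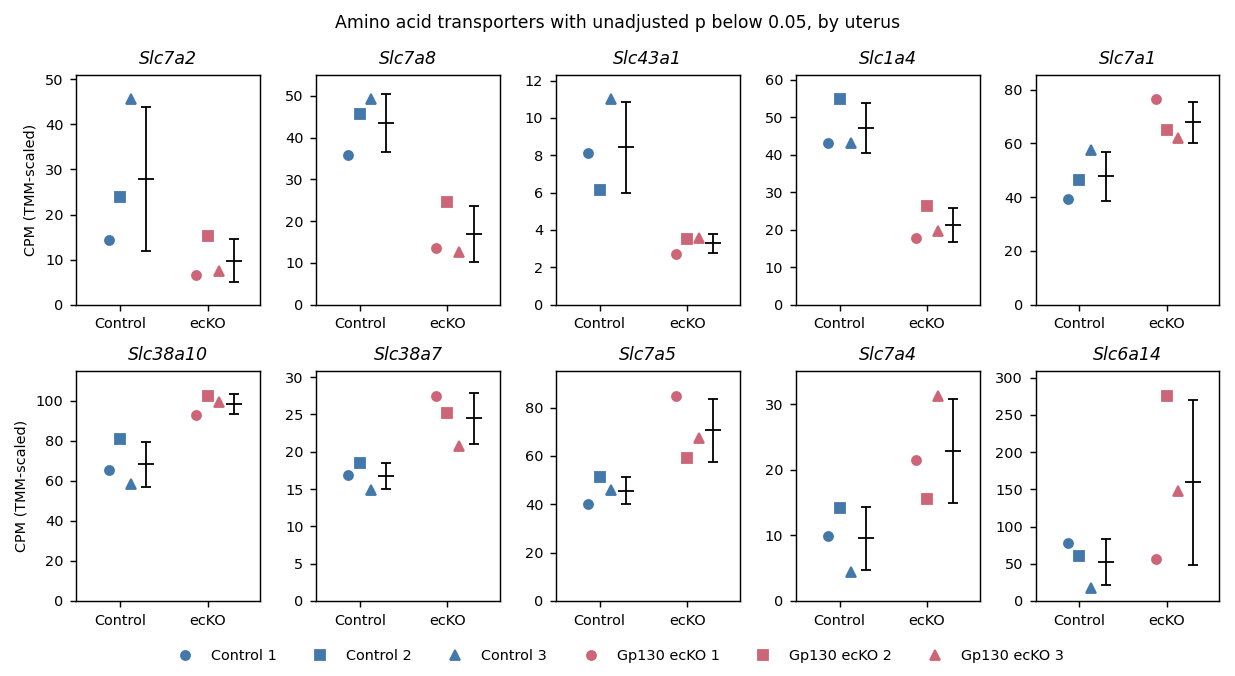
CPM of the 10 transporters with an unadjusted p below 0.05 in each uterus, ordered from the lowest to the highest fold change, with the mean and SD of each group (n = 3) as black bars on axes that start at 0. For *Slc7a2* and *Slc6a14* the groups overlap, and for the other 8 they do not.

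The balance between transporters with like substrates can be read from ratios within a uterus, which need no scaling between libraries. These pairs were chosen after the values were seen, so the ratios are given with no test. The TPM of *Slc7a5* over that of *Slc7a8*, the light chains that share *Slc3a2*, ran 1.3, 1.31 and 1.08 over control uteri 1 to 3 against 7.33, 2.82 and 6.28 over *Gp130* ecKO uteri 1 to 3. The groups were far apart, with *Gp130* ecKO 2 the nearest to the control. For *Slc1a5* over *Slc1a4*, exchangers of small neutral amino acids, it was 7.29, 4.79 and 7.68 in the controls against 20.2, 10.3 and 27.3 in *Gp130* ecKO. For the cationic carriers *Slc7a1* over *Slc7a2* it was 3.01, 2.12 and 1.37 in the controls against 11.4, 4.75 and 9.02 in *Gp130* ecKO. The facilitative carriers *Slc43a2* over *Slc43a1* had 2.27, 1.53 and 0.922 in the controls against 3.90, 3.25 and 6.68 in *Gp130* ecKO. In all 4 pairs the *Gp130* ecKO ratios exceeded all control ratios. The denominators are the 4 genes described above as lower in *Gp130* ecKO, so higher ratios follow largely from that choice and are no separate result. The CPM of the numerators *Slc1a5* and *Slc43a2* overlapped between the groups. *Gp130* ecKO 2 had the lowest ratio of its group in each pair.

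**Figure D4:**
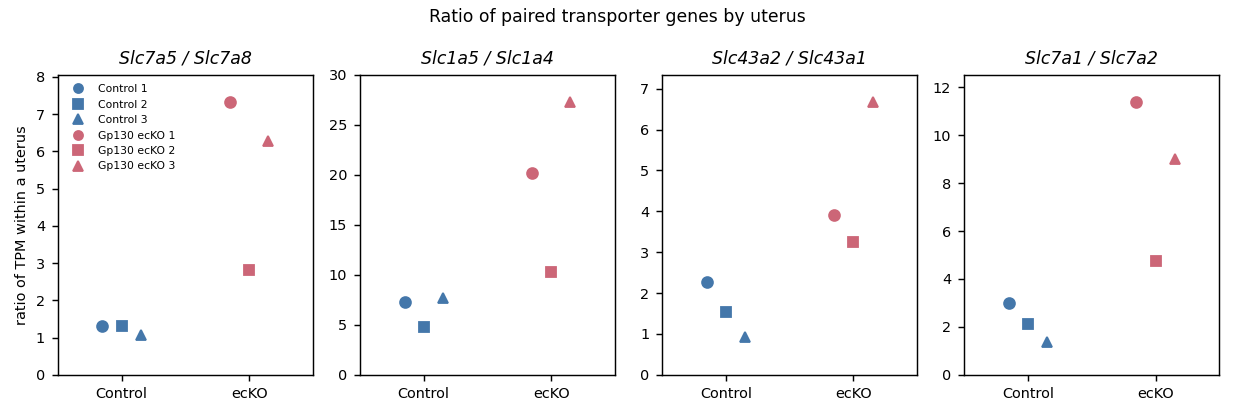
Ratio of the TPM of paired transporter genes within each uterus, on axes that start at 0, with controls in blue and *Gp130* ecKO uteri in red. The ratio of *Slc7a5* to *Slc7a8* is at most 1.31 in the controls and at least 2.82 in *Gp130* ecKO.

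The other 19 tested members had an unadjusted p of 0.05 or more, with log2 fold changes from −0.76 for *Slc38a5* to 0.67 for *Slc36a1*. A p above the threshold does not show that their levels were equal. The glutamate and aspartate carriers were lower in *Gp130* ecKO on average. *Slc1a1* measured 814.9, 523.3 and 459.7 CPM in control uteri 1 to 3 against 652, 298.7 and 297.8 CPM in *Gp130* ecKO uteri 1 to 3. The groups overlapped, since *Gp130* ecKO 1 exceeded 2 of the controls. The log2 fold change of *Slc1a1* was −0.53 (SE 0.38, edgeR adjusted p = 0.409), and ranged from −1.0 without *Gp130* ecKO 1 to −0.22 without control 1. The unadjusted p was below 0.05 in 2 of 16 alternatives. *Slc1a3* and *Slc1a2*, best known from glia, had control means of 3.19 and 0.497 CPM, with log2 fold changes of −0.32 and −0.58. At these low levels single uteri weighed heavily, and *Slc1a2* had −1.05 without *Gp130* ecKO 1 and −0.10 without *Gp130* ecKO 3.

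*Slc3a2*, the heavy chain, measured 139, 131 and 118 CPM in control uteri 1 to 3 against 121, 124 and 203 CPM in *Gp130* ecKO uteri 1 to 3. The log2 fold change was 0.21 (SE 0.23, edgeR adjusted p = 0.598). *Slc1a5* measured 208, 149 and 192 CPM in control uteri 1 to 3 against 193, 133 and 281 CPM in *Gp130* ecKO uteri 1 to 3, a log2 fold change of 0.15 (SE 0.28, edgeR adjusted p = 0.768). In both genes *Gp130* ecKO 3 was the highest uterus and the other values overlapped. The same uterus was highest for *Slc43a2*, a facilitative carrier of large neutral amino acids, with 39 CPM, and for *Slc6a9*, a glycine transporter, with 8.13 CPM. Without *Gp130* ecKO 3 the log2 fold change turned negative in these genes, to −0.05 for *Slc3a2*, −0.14 for *Slc1a5*, −0.09 for *Slc43a2* and −0.34 for *Slc6a9*. *Gp130* ecKO 3 also had the highest sum of smooth muscle markers, and the part of this in the values was not tested.

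The sodium- and chloride-dependent SLC6 transporters were higher on average in all 4 tested members, of which *Slc6a14* is described above. *Slc6a6*, which takes up taurine, measured 246, 257 and 404 CPM in control uteri 1 to 3 against 565, 468 and 280 CPM in *Gp130* ecKO uteri 1 to 3. *Gp130* ecKO 3 was below control 3, so the groups overlapped. Its log2 fold change was 0.53 (SE 0.31, edgeR adjusted p = 0.321), and ranged from 0.31 without *Gp130* ecKO 1 to 0.80 without *Gp130* ecKO 3. Its unadjusted p was below 0.05 in 2 of 16 alternatives. *Slc6a15*, a carrier of branched-chain amino acids and proline, had control and *Gp130* ecKO means of 3.39 and 4.96 CPM.

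The carriers of small neutral amino acids with sodium are known as system A. *Slc38a2* measured 159, 258 and 272 CPM in control uteri 1 to 3 against 241, 210 and 204 CPM in *Gp130* ecKO uteri 1 to 3, all within the range of the controls. Its log2 fold change was −0.07 (SE 0.23, edgeR adjusted p = 0.854). *Slc38a1* had a log2 fold change of −0.11, and *Slc38a4*, an imprinted gene of the placenta, −0.74 with a standard error of 0.62. *Slc38a4* had 9.43 CPM in control 1 and at most 5.10 CPM in any other uterus, and its change was 0.00 without control 1. *Slc38a5*, a glutamine carrier that also moves protons, had means of 1.75 and 1.03 CPM.

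*Slc7a6* and *Slc7a7*, light chains that exchange cationic for neutral amino acids, overlapped between the groups. Their control means were 20.7 and 22.2 CPM and their *Gp130* ecKO means 13.8 and 27.1 CPM. Among intracellular members, *Slc38a9*, the lysosomal arginine sensor of mTORC1, averaged 8.91 ± 1.34 CPM in controls and 8.74 ± 1.48 CPM in *Gp130* ecKO uteri (SD, n = 3 each). Its log2 fold change of −0.03 had a standard error of 0.26. *Slc36a1*, a proton-coupled carrier of lysosomes, had means of 9.74 and 15.4 CPM (log2 fold change 0.67, SE 0.30, edgeR adjusted p = 0.214), and the groups overlapped. *Slc36a4* had means of 12.1 and 10.3 CPM. *Slc38a6* was lower in every *Gp130* ecKO uterus, at most 2.88 CPM against at least 3.2 CPM in the control, with an unadjusted p of 0.113. In *Slc38a6*, 16.8% of the stretches of 75 bases also occur in other genes on the same strand, so its counts depend on how reads were divided.

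The levels were also summed over 10 classes of the 36 genes, and the sums overlapped between the groups in 7 classes and not in 3. The sum of the glutamate and aspartate carriers was 207.4 to 310.4 TPM in controls and 108.7 to 258.5 TPM with *Gp130* deleted, nearly all of it from *Slc1a1*. The system A carriers summed to 49.21 to 88.55 and 60.85 to 76.54 TPM, and the light chains to 44.2 to 69.65 and 49.26 to 69.01 TPM, in the same order of groups. The sums of the exchangers of alanine, serine and cysteine, the heavy chains, the facilitative carriers and the system N carriers overlapped too. The 3 sums that did not overlap were higher with *Gp130* deleted. They were 84.8 to 112.9 and 120.3 to 259.4 TPM for the SLC6 members, where *Slc6a6* made up 74.6% of the control sum. For the cationic carriers they were 15.76 to 23.39 and 29.43 to 32.72 TPM. There *Slc7a4*, whose substrates are unsettled, made up 33.0% of the control sum, with 3.67 to 10.05 and 12.71 to 20.69 TPM. The TPM of *Slc7a1*, 6.84 to 11.21 and 10.82 to 14.97, overlapped between the groups. That of *Slc7a2*, 2.27 to 8.16 and 1.2 to 2.91, overlapped too and was lower on average with *Gp130* deleted. For the 6 lysosomal, intracellular or less characterised members they were 37.55 to 46.63 and 52.08 to 76.66 TPM, and *Slc38a10* made up 59.3% of the control sum. Of single genes, 31.3% of all tested did not overlap in CPM.

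The remaining 7 members fell under the filter on low counts. *Slc6a19*, the main neutral amino acid carrier of intestine and kidney, had 0 counts in all 6 uteri. *Slc7a10*, an exchanger of small neutral amino acids, had 1 count in 1 uterus, and *Slc6a20a*, an imino acid carrier, at most 1 count in each. *Slc7a9*, the partner of *Slc3a1*, had at most 2 counts, and *Slc38a3*, a glutamine carrier, at most 7. *Slc3a1*, the other heavy chain, had 11 counts in control 3, 3 in *Gp130* ecKO 3 and at most 1 elsewhere. *Slc7a3*, a carrier of cationic amino acids, had 0, 7 and 10 counts in controls 1, 2 and 3, and at most 1 count in each *Gp130* ecKO uterus. The filter removed these 7 genes from the main fit, so a difference in them was not tested there.

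Beyond the members, a list of 30 other amino acid transporters and partners had 7 tested genes. The cystine carrier *Slc7a11*, another partner of *Slc3a2*, was the gene of this list called by edgeR's quasi-likelihood test, 15.4-fold higher with an adjusted p of 0.0430. *Slc6a17* was 2.85-fold higher and *Slc43a3* lower by 1.11 on the log2 scale, both with an unadjusted p below 0.05 and adjusted p-values of 0.165 and 0.131 from edgeR. DESeq2 called *Slc43a3*, with an adjusted p of 0.0467, and not *Slc6a17*. Of 7 tested mitochondrial carriers 2 were higher at an unadjusted p below 0.05 and 0 were lower, or 28.6%, near the 25% of all tested genes. Of 4 peptide transporters 1 was higher at that threshold. This was *Slc15a2*, a proton-coupled carrier of dipeptides, measuring 28.9, 83.6 and 19.6 CPM in control uteri 1 to 3 against 122, 157 and 221 CPM in *Gp130* ecKO uteri 1 to 3 (log2 fold change 1.92, SE 0.53, adjusted p = 0.105 with edgeR and 0.00586 with DESeq2).

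Of the 23 listed genes of the GCN2 and ATF4 response, all were tested, 9 were higher and 14 lower, with a median log2 fold change of −0.46 beside −0.05 for all genes and of −0.28 without control 1. At an unadjusted p below 0.05, 8 were lower and 2 higher, or 43.5%, against 25% of all tested genes. None was called by edgeR's quasi-likelihood test, and DESeq2 called 5 lower and 1 higher, where 4.9% of all tested genes were called lower and 4.41% higher. *Atf4* measured 211, 117 and 273 CPM in control uteri 1 to 3 against 76.7, 96.4 and 96.2 CPM in *Gp130* ecKO uteri 1 to 3 (log2 fold change −1.16, SE 0.30, adjusted p = 0.0964 with edgeR and 0.0128 with DESeq2). Every *Gp130* ecKO uterus was below control 2, the lowest control. *Phgdh*, which opens serine synthesis, measured 47.9, 37.0 and 71.7 CPM in control uteri 1 to 3 against 16.0, 26.7 and 23.3 CPM in *Gp130* ecKO uteri 1 to 3 (log2 fold change −1.25, SE 0.30, edgeR adjusted p = 0.0898). *Asns*, which makes asparagine, was lower by 0.62 on the log2 scale, with no overlap between the groups. Control 2 differed from the other controls in some of these genes, with 5.71 CPM of *Nupr1*, a stress-induced chromatin protein, against 91.5 and 93.4 CPM in controls 1 and 3. The 2 higher genes were *Eif2ak4*, which encodes GCN2, with a log2 fold change of 0.64, and *Sesn2*, a leucine sensor, with 1.20.

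The list of amino acid sensing by mTORC1 holds both parts and inhibitors of the complex, so a shared direction is no measure of its activity. Of its 33 genes, 29 were higher on average. Their median log2 fold change was 0.22, or 0.38 without control 2, and 10 were higher and 0 lower at an unadjusted p below 0.05, or 30.3%. Over all tested genes 25% had such a p, 12.1% higher, and 47.1% were higher on average. None was called by edgeR's quasi-likelihood test. DESeq2 called 3 of the 33 higher, *Tsc1*, *Fnip1* and *Sesn2*, where 4.41% of all tested genes were, and the exact test called 2, *Tsc1* and *Fnip1*. *Tsc1*, an inhibitor of mTORC1, measured 19.1, 40.4 and 34.8 CPM in control uteri 1 to 3 against 106, 119.9 and 73.0 CPM in *Gp130* ecKO uteri 1 to 3 (log2 fold change 1.66, SE 0.32, adjusted p = 0.0677 with edgeR and 1.31e-04 with DESeq2). *Rptor*, a core subunit of the complex, had a log2 fold change of 0.83 with an adjusted p of 0.0907. The 20 cytosolic aminoacyl-tRNA synthetases, 9 higher and 11 lower, had a median of −0.03 and 1 gene with an unadjusted p below 0.05. In glutamine, glutamate and branched-chain metabolism, 1 of 13 genes had such a p. This was *Bcat1*, which transfers the amino group of leucine, isoleucine and valine, measuring 64.1, 327 and 105.5 CPM in control uteri 1 to 3 against 766, 1018 and 1361 CPM in *Gp130* ecKO uteri 1 to 3. Its log2 fold change was 2.66 (SE 0.61, adjusted p = 0.0821 with edgeR and 1.27e-04 with DESeq2).

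**Figure D5:**
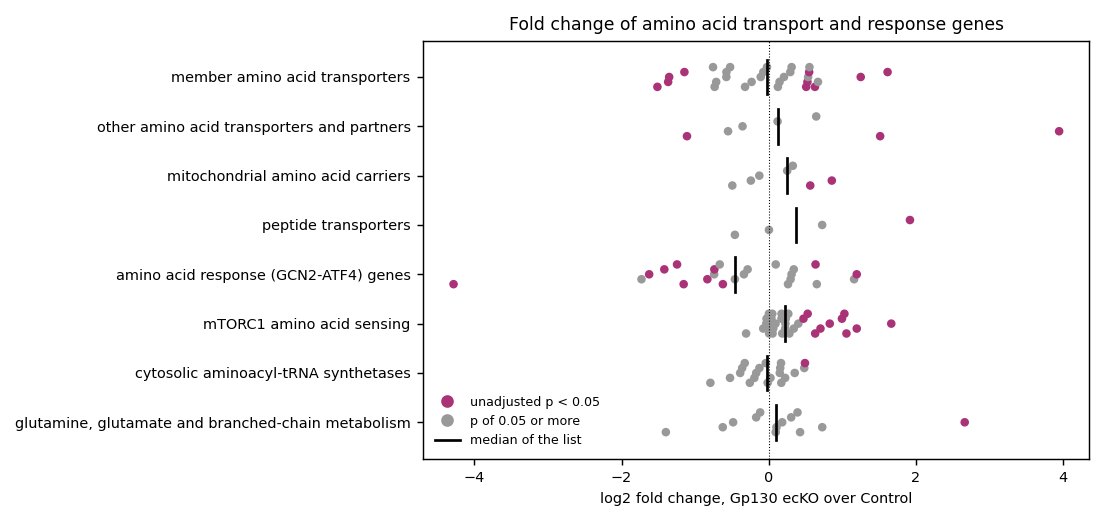
Log2 fold change in *Gp130* ecKO over the control of every tested gene in the transporter group and 7 related lists, with purple points for an unadjusted p below 0.05 and a black line at the median of each list. The median is −0.46 in the GCN2 and ATF4 list and 0.22 in the mTORC1 list, and the transporters spread to both sides of −0.03.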

How the data were processed

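Reads of strand-specific poly(A) libraries went through fastp (trimming), SortMeRNA (removal of ribosomal RNA), STAR (alignment to GRCm39) and RSEM (gene counts), all run by the authors. The annotation version and the strand setting are not given in the sources used here. The deposited expected counts are not normalized. The deposited TPM, which the authors corrected for gene length, served for levels between genes and for ratios within a uterus, never for a test. Expected counts were rounded, then fitted with edgeR 4.0.16 under R 4.3.3 (filterByExpr, TMM, quasi-likelihood F test, Benjamini-Hochberg over all 16605 tested genes), with DESeq2 1.42.0 and edgeR's exact and likelihood ratio tests as alternatives. Other alternatives were normalizations, filters, unrounded counts, a block by replicate number and fits that drop 1 uterus. The standard error was taken from the F statistic, as |log2 fold change| over its root. Symbols and positions came from GENCODE M39, which holds 56017 of the 56748 identifiers, and promoters from RefSeq. The members and lists were chosen with earlier results of these data known. Named in full are members called, those with an unadjusted p below 0.05 and the 5 with the highest control TPM. The scripts were tested on simulated data. Totals per uterus ranged from 13960748 to 25906443 counts, and no pair of libraries within a group was near identical. The median log2 ratio of *Gp130* ecKO to control over tested genes was −0.05 in CPM and 0.02 in TPM.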

Additional observations from a re-analysis of the deposited data

How the results depend on the processing

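Each of the 29 transporters was refitted under up to 16 alternatives, which gave 463 values, of which 435 kept the direction and the side of the threshold, 12 became calls and 16 turned in sign. The 12 calls were *Slc1a4*, *Slc7a8*, *Slc43a1* and *Slc7a2* with DESeq2 and edgeR's exact and likelihood ratio tests, 4 transporters called in each. The adjusted p was lowest with DESeq2 in each and at most 0.206 for *Slc1a4*, 0.246 for *Slc7a8*, 0.264 for *Slc43a1* and 0.330 for *Slc7a2*, and over 0.05 in all fits outside these 3 tests. Over all genes the main test called 26, DESeq2 1546, the exact test 1252, the likelihood ratio test 1317, the legacy quasi-likelihood form 7 and the fit with no filter on low counts 105. With a uterus left out the number was 1 to 892, the highest without control 2, and no transporter was called in any of these fits. In the same fits the number of transporters higher at an unadjusted p below 0.05 was 2 to 6, lowest without *Gp130* ecKO 2, and the median over the transporters −0.094 to 0.11, highest without *Gp130* ecKO 1. With the replicate number as a block, 6 genes were called, 2 transporters were higher and 5 lower at an unadjusted p below 0.05, and with DESeq2 7 were higher and 4 lower. Deviations of same-numbered uteri correlated at 0.10, 0.07 and −0.20 for numbers 1, 2 and 3, so the numbers were not taken as pairs. With a uterus left out the log2 fold change crossed or reached 0 in 10 genes, within −0.96 to 0.05 for *Slc1a3*, −0.14 to 0.38 for *Slc1a5*, −0.052 to 0.34 for *Slc3a2*, −0.34 to 0.36 for *Slc6a9*, −0.67 to 0.054 for *Slc36a4*, −0.24 to 0.11 for *Slc38a1*, −0.25 to 0.062 for *Slc38a2*, −1.22 to 0.00 for *Slc38a4*, −0.14 to 0.078 for *Slc38a9* and −0.094 to 0.66 for *Slc43a2*. *Slc38a9* was at 0.011 with no filter. The cause of these shifts was not tested. Low counts limit the 7 members under the filter.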
